A study of Mus musculus with 6 samples.

Results

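LTR retrotransposons are the remains of endogenous retroviruses and related elements, and 1365 of the 17462 ATF4 peaks listed in mouse embryonic fibroblasts (MEFs) lay in them. A peak was counted as an LTR peak when the deposited annotation placed its center in an intron or in an intergenic region, and there in a repeat of the class LTR. Only the 15086 intron and intergenic peaks could be chosen in this way. Wild-type (WT) cells had 443 LTR peaks with leucine (WT +Leu) and 481 without it (WT -Leu). Cells lacking GCN2 had 273 with leucine (GCN2 KO +Leu) and 168 without it (GCN2 KO -Leu). Where 4 values follow each other, they are in this order.

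ATF4 binding was measured by chromatin immunoprecipitation and sequencing (ChIP-seq) in primary Wild-type and GCN2-/- MEFs of the strain 129S6/SvEvTac. The cells were kept for 24 h either in complete DMEM (+Leu) or in DMEM lacking leucine (-Leu), and all 4 libraries were made with the ATF4 antibody sc-200. The pooled chromatin of independent experiments gave 1 library for each condition. Differences between conditions therefore have no replicates behind them, and none was tested. Each list was called against the input DNA of leucine-fed cells of the same genotype, and the 2 input libraries were not analysed here. GCN2 is the kinase that senses uncharged tRNA and raises the translation of ATF4, and a list of peaks cannot show whether it was absent from the knockout cells. The lists give no read depth, and unequal depth of the libraries and unequal binding cannot be told apart in the numbers of peaks. Each listed window reaches 150 bases to either side of the peak summit on the build mm10, and each carries a whole-number score of the authors, from 13 upwards, that is not normalized between libraries.

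ATF4 belongs to the basic leucine zipper factors. It binds DNA as a dimer, often with a C/EBP protein, at a composite element made of the first part of an ATF site and the last part of a C/EBP site, with the core TGATGCAA. Retrotransposons of the LTR class carry long terminal repeats, which hold the promoter and enhancer of the element, around an internal region. Recombination between both repeats of a copy leaves a solitary LTR, and most copies in the mouse genome have this form. The main families of the class here are ERV1, ERVK, ERVL and ERVL-MaLR. The MaLR names (MTA to MTE, ORR1 and MLT1) belong to non-autonomous elements related to ERVL, among which MLT1 is old and shared with other mammals. The names ending in -int refer to internal regions.

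The following sequences show what the later results turn on, namely the core motif in windows that recurred or scored high and the same position in related copies. They were read from the mm10 reference, which represents the strain C57BL/6J and not the strain of the cells, and are written 5′ to 3′ on the strand given. Each window is centered on the capitals, which mark TGATGCAA or, in the windows nearest to Acsl3, Ccdc117 and Sh2d4a, a form of it with 1 base changed. These 3 windows and the one nearest to Ptn were chosen after their values were seen.
MTD (nearest gene 4930563F08Rik, score 646 in WT -Leu, chr5:131876709-131876809, plus strand): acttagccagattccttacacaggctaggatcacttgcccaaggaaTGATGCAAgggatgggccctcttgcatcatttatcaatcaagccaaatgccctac
RMER19B (nearest gene 4933417G07Rik, score 637 in WT -Leu, chr3:55909458-55909558, minus strand): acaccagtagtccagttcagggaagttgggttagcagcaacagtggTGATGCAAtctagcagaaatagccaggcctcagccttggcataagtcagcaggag
MTE-int (nearest gene Nrg3, score 250 in WT -Leu, chr14:39192097-39192197, minus strand): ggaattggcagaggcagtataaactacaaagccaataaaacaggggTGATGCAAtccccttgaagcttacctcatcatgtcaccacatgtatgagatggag
MTC (nearest gene Megf9, score 450 in WT -Leu, chr4:70621672-70621772, plus strand): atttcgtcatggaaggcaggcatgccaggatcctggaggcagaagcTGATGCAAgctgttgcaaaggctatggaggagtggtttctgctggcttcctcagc
MTC (nearest gene Ptn, score 27 in GCN2 KO -Leu, chr6:36955753-36955853, plus strand): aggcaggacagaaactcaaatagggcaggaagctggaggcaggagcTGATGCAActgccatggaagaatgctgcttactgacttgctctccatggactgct
MTC (nearest gene Acsl3, score 54 in WT -Leu, chr1:78639431-78639531, plus strand): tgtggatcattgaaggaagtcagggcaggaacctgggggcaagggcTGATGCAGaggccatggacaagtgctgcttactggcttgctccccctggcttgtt
RMER6A (nearest gene Cebpd, listed in WT -Leu, chr16:15878401-15878501, minus strand): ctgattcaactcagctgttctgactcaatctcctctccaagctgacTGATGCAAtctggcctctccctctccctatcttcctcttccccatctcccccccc
RMER6A (nearest gene Myl4, score 48 in WT -Leu, chr11:104562194-104562294, plus strand): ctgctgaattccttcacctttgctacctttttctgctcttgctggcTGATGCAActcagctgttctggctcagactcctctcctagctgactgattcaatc
RMER6A (nearest gene Ccdc117, score 97 in WT -Leu, chr11:5551604-5551704, plus strand): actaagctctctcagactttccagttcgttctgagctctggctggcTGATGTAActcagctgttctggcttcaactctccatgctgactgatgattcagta
RMER19A (nearest gene Sh2d4a, score 615 in WT -Leu, chr8:68171603-68171703, minus strand): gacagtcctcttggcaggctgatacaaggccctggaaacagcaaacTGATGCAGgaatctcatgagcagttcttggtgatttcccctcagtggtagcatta

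The repeat names were those of the deposited annotation, and no separate repeat map was used to check them. The windows themselves gave a partial check. Each of the 1244 LTR loci whose name occurred at another locus was set beside all the others, and the locus that shared most words of 8 bases with it bore the same name in 508 cases (40.8%) and belonged to the same family in 960 cases (77.2%). Picking a locus without regard to sequence would give 1.83% and 38.2%. The likeness was uneven. For RMER19B the nearest locus had the same name in 36 of 37 cases, for MTC in 39 of 44, for RMER17B in 34 of 39 and for RMER13B in 40 of 51. For ORR1F it had the same name in 1 of 36, and for MTEa in 8 of 37. The reference also marks bases as repetitive, by a method not given in the sources used here. Such bases made up a median of 21.76%, 15.95%, 16.28% and 19.77% of the LTR windows. TGATGCAA near the center lay in them in 1 of 7 peaks of WT +Leu, 3 of 25 of WT -Leu and 1 of 1 of GCN2 KO -Leu. That these motifs lie in LTR elements thus rests on the deposited annotation.

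ERVL-MaLR elements held about as many LTR peaks as all other families together. Their share in WT was 52.6% with leucine (95% Wilson interval 47.9 to 57.2) and 50.7% without it (46.3 to 55.2). In GCN2 KO it was 47.6% with leucine (41.8 to 53.5) and 48.2% without it (40.8 to 55.7). These and all later intervals cover counting error only. ERVK elements followed with 30.7%, 30.6%, 33.7% and 39.3% in the same order. ERVL held 9.26%, 12.3%, 13.2% and 7.74%, and ERV1 held 7.22%, 6.24%, 4.40% and 4.17%. The remaining 1, 1, 3 and 1 peaks were labelled Gypsy, Gypsy? or ERVK?, where the question mark belongs to the label. For each family the intervals of the 4 lists overlapped, as the plot of the family make-up shows. The copies of each family or name in the genome were not counted. Neither these shares nor the counts by name below therefore show a preference of ATF4.

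**Figure D1:**
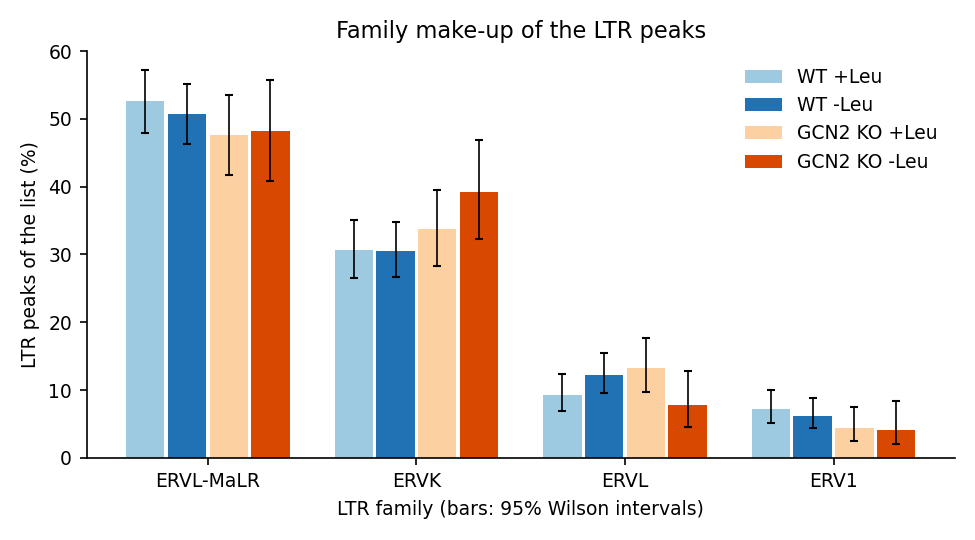
Percent of the LTR peaks of each list (y axis) in the 4 main LTR families (x axis), with 95% Wilson intervals as error bars and 1 color per list. ERVL-MaLR stands highest in every list, between 47.6% and 52.6%, and the error bars of the 4 lists overlap within each family.

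The LTR peaks carried 242 repeat names, 97 of them only once, and 40 names occurred in all 4 lists. The 10 names with most peaks held 453 of the 1365 peaks (33.2%). MTD led with 95 peaks, 39, 33, 13 and 10 in the order of the lists. It was followed by ORR1E with 57 peaks, RMER13B with 51, MTC with 45 and RMER17B with 41. MTEa and RMER19B had 37 peaks each, ORR1F had 36 and RMER15 had 28, and MTE2b and ORR1B1 tied at 26. Intracisternal A particles, the young and still mobile ERVK elements of the mouse, had 1, 1, 1 and 0 peaks, and no peak was listed in an ETn or MusD element. Whether reads from such near-identical copies were kept is not given in the sources used here, so a low count does not show that ATF4 was absent from them.

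LTR peaks lay farther from genes than the other intron and intergenic peaks of the same list. In the order of the lists, introns held 35.7%, 36.4%, 35.5% and 29.2% of the LTR peaks, against 52.9%, 54.3%, 53.2% and 51.6% of the others, and in no list did the intervals overlap. The median distance to the nearest transcription start site (TSS) was 40.8, 40.7, 40.2 and 39.4 kb, against 30.6, 28.3, 29.8 and 31.6 kb for the others. The median GC content of the LTR windows was 50.5%, 50.5%, 51.5% and 51.5%, against 51.5%, 51.8%, 52.5% and 52.8% for the others.

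The LTR share of the intron and intergenic peaks was 10.4% with leucine (9.51 to 11.3) and 8.77% without it (8.05 to 9.54) in WT, and 8.94% (7.98 to 10) and 7.38% (6.37 to 8.52) in GCN2 KO. It was lower without leucine in both genotypes, although the intervals overlapped in each. Without leucine, the LTR peaks of WT stood at 1.09 times their number with it (0.954 to 1.24), while the other intron and intergenic peaks stood at 1.31 times (1.26 to 1.37). In GCN2 KO the ratios were 0.615 (0.508 to 0.746) and 0.758 (0.717 to 0.803). Between the genotypes the LTR peaks of GCN2 KO stood at 0.616 times those of WT with leucine (0.530 to 0.717) and at 0.349 times without it (0.293 to 0.416), against 0.728 and 0.421 for the other peaks.

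Most LTR peaks scored low in every list, and high scores were nearly all in WT -Leu. The median score was 29 in WT +Leu and 30 in each of the other lists, but the highest score was 646 in WT -Leu against 103 in WT +Leu, and in GCN2 KO 81 with leucine and 76 without it. Of the 481 LTR peaks in WT -Leu, 30 scored at least 100 (6.24%, 4.40 to 8.76), where 9.82% of all listed peaks reached it. In WT +Leu 1 of 443 did (0.226%), against 1.86% of all peaks. No LTR peak of GCN2 KO did, neither with leucine (0 of 273, which allows a share of up to 1.10%) nor without it (0 of 168, up to 1.79%), where 0.897% and 0.487% of all peaks did. In WT -Leu the share of LTR peaks past 100 minus that of the other intron and intergenic peaks was -3.53 percentage points (95% Newcombe interval -5.55 to -0.881), and in WT +Leu it was -1.45 points (-1.94 to -0.346). Of the other repeat classes in WT -Leu, 5.60% of the peaks in SINEs (short interspersed elements) and 3.34% of those in LINEs (long interspersed elements) reached 100, against 10.8% of peaks with no repeat named. The interval of the LTR share lay below that of peaks with no repeat named (9.92 to 11.8%) and overlapped those of SINEs and LINEs. Lower down the scale, the share with a score of at least 30 in GCN2 KO +Leu was 54.9% of LTR peaks against 46.2% of the others (difference 8.79 points, 2.58 to 14.9). In the other 3 lists the interval of that difference included 0. The higher share in GCN2 KO +Leu was not particular to LTR peaks. There 50.7% of SINE peaks and 55.5% of LINE peaks reached 30, against 44.8% of peaks with no repeat named.

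**Figure D2:**
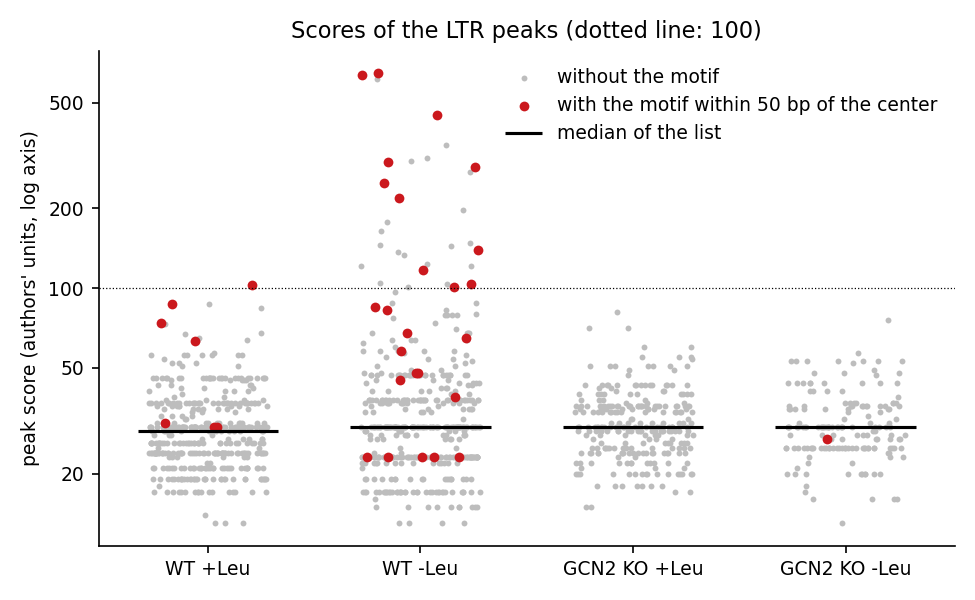
Score of each LTR peak in the authors' units (y axis, log scale) by list (x axis), with red points for peaks that hold TGATGCAA within 50 bp of the center, grey points for the others, a black line at each median and a dotted line at 100. The 30 peaks above the dotted line in WT -Leu reach 646, while the highest points of the GCN2 KO lists are at 81 and 76.

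TGATGCAA was searched on both strands within 50 bp of the center on assembled chromosomes. In WT -Leu it was in 25 of 481 LTR peaks (5.20%, 3.55 to 7.56), against 6.95% of all listed peaks, and in WT +Leu in 7 of 442 (1.58%, 0.769 to 3.23), against 2.71%. In GCN2 KO none of 273 LTR peaks with leucine held it (up to 1.10%), against 1.07% of all peaks, and 1 of 168 without leucine did (0.595%, 0.105 to 3.29), against 1.09%. Windows of the same length 1 kb to either side of the LTR peaks had the motif in 0.339%, 0.208%, 0.549% and 0.595% of cases for the 4 lists. In WT -Leu the interval of the peaks therefore lay wholly above that of their neighbours (0.0570 to 0.755%), in WT +Leu the intervals met only between 0.769 and 0.993%, and in the GCN2 KO lists the peaks could not be told apart from their surroundings. Within WT -Leu the share was 1.97% in SINE peaks (0.956 to 4), 3.86% in LINE peaks (2.35 to 6.26) and 7.86% in peaks with no repeat named (7.08 to 8.73).

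**Figure D3:**
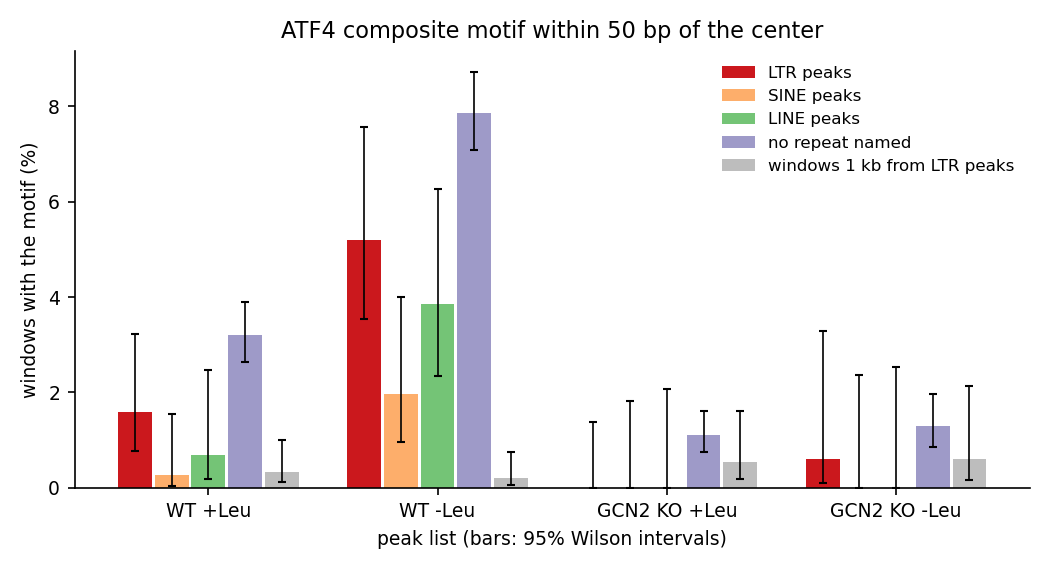
Percent of windows that hold TGATGCAA at most 50 bp from the center (y axis) by list (x axis), for LTR, SINE and LINE peaks, peaks with no repeat named and windows 1 kb from the LTR peaks, with 95% Wilson intervals. The LTR peaks of WT -Leu stand at 5.20% against 0.208% in the windows 1 kb away, and in GCN2 KO the bars of LTR peaks and of those windows have overlapping intervals.

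Other basic leucine zipper sites were counted in the same windows. With any base at position 6 (TGATGNAA, which includes TGATGCAA) the LTR share was 2.71%, 8.52%, 1.10% and 3.57% in the order of the lists, against 1.58%, 1.25%, 2.01% and 1.49% in the neighbouring windows. TGANTCA covers the site of AP-1 (the Fos and Jun dimer), TGACTCA or TGAGTCA, but also takes A or T in the middle. It was in 3.17%, 6.24%, 1.83% and 0.595% of the LTR peaks, against 3.17%, 3.01%, 3.48% and 3.27% of their neighbours. WT -Leu was the list in which its share stood above the neighbours, with intervals of 4.40 to 8.76 and 2.11 to 4.30. This was not particular to LTR peaks. The other intron and intergenic peaks of WT -Leu held TGANTCA in 4.52% (3.98 to 5.13), against 2.75% of their neighbours (2.45 to 3.09). The LTR share minus theirs was 1.72 points (Newcombe interval -0.217 to 4.30). For TGATGNAA they stood at 11.3%, and the difference was -2.78 points (-5.14 to 0.182). Neither the cyclic AMP response element TGACGTCA nor the C/EBP site TTGCGCAA was within 50 bp of the center of an LTR peak in any list. Within 150 bp, TGACGTCA was in 1 LTR peak of WT +Leu and 1 of GCN2 KO -Leu. Both sites were also rare within 50 bp in the other intron and intergenic peaks. There TGACGTCA was in at most 0.140% (WT -Leu) and TTGCGCAA in at most 0.0361% (GCN2 KO +Leu).

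In the WT lists the motif was more frequent among LTR peaks that scored 60 or more than among those below. Of the 33 LTR peaks with it in any list, 19 scored 60 or more and 12 scored 100 or more. In WT -Leu it was in 11 of the 30 LTR peaks that scored 100 or more (36.7%, 21.9 to 54.5), in 4 of 27 that scored 60 to 99 (14.8%), in 5 of 224 that scored 30 to 59 (2.23%) and in 5 of 200 below that (2.50%). The other intron and intergenic peaks of WT -Leu held it in 38.1% of those past 100 (33.9 to 42.5) and in 25.9%, 3.61% and 0.721% of the lower ranges. LTR peaks past 100 thus held the motif about as often as other peaks of that score, within a wide interval. Over all lists 33 LTR peaks at 28 loci held it, at a median distance of 15 bp from the center, and 21 of the 33 lay in introns. Of the 28 loci, 27 had a WT peak, 7 had a peak in both WT lists and 27 had no GCN2 KO peak. The last count is near that of peaks in general, since 1.27 to 1.92% of all WT peaks had a partner in a given GCN2 KO list.

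**Figure D4:**
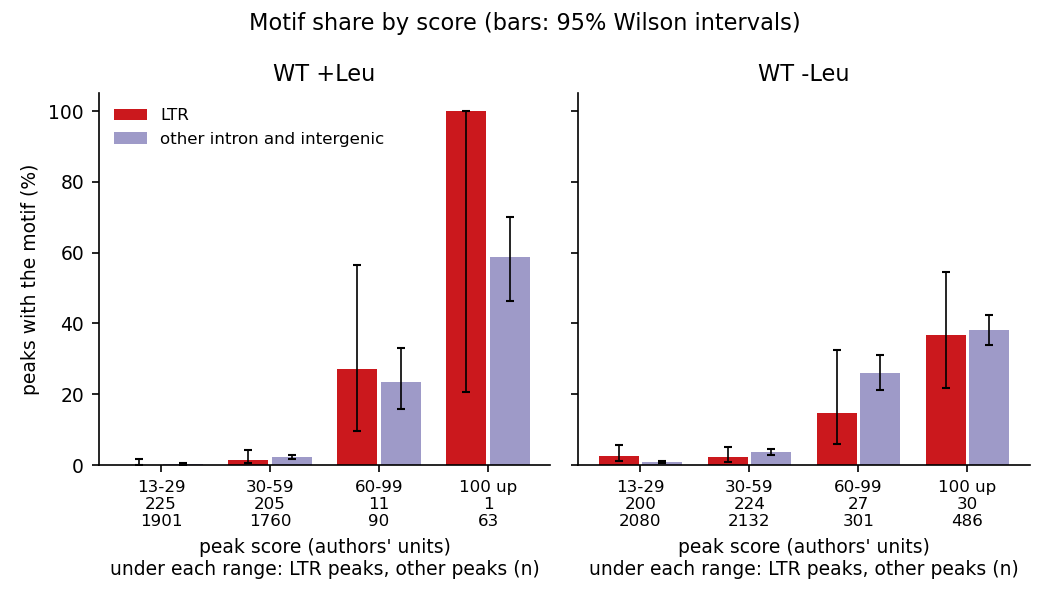
Percent of peaks that hold TGATGCAA at most 50 bp from the center (y axis) by score range (x axis) for LTR peaks and other intron and intergenic peaks of WT +Leu and WT -Leu, with 95% Wilson intervals and the number of peaks under each range. In WT -Leu the share is 36.7% of LTR peaks and 38.1% of other peaks past a score of 100, and 2.50% and 0.721% in the lowest range.

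The strongest LTR peak of the 4 lists lay in an MTD element in an intron at -3517 bp from the TSS of 4930563F08Rik, a transcript known only by its clone name. It scored 646 in WT -Leu, which ranked 60 among the peaks of the list, and 87 in WT +Leu, and was listed in neither GCN2 KO list. The motif lay 7 bp from the center in WT -Leu. The printed window held 2 copies of it over both strands, as did the window near Dph6, while all other motif-centered windows read from the reference held 1 each. Next came an RMER19B peak with a score of 637 in WT -Leu and no peak in any other list. It lay in intron 34 of Nbea, which encodes the membrane trafficking protein neurobeachin, with the motif 2 bp from the center. An intergenic RMER19A peak at -104851 bp from Sh2d4a, an SH2 domain adaptor gene, scored 615 in WT -Leu and 57 in WT +Leu, and held TGATGCAG (A8G, positions counted from 1 at the 5′ end of TGATGCAA) and an AP-1 site instead of the motif. An MTC peak nearest to Megf9, which encodes a membrane protein with EGF-like repeats, scored 450 in WT -Leu and 103 in WT +Leu, the highest score of an LTR peak in that list.

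Further down the WT -Leu list, an MLT1F1 peak at -4188 bp from Psmc6, a gene of the proteasome's ATPase ring, scored 347 and held an AP-1 site but no TGATGNAA. An RLTR35B_MM peak in intron 1 of Anks6, an ankyrin repeat gene of the primary cilium, scored 310 at 3742 bp from the TSS and held TGATGTAA (C6T). MLT1H2 near the calcium sensor gene Stim2 scored 298 and MLT1B near Dph6, a gene of diphthamide synthesis, scored 286, both with the motif. The MTE-int peak in intron 1 of the growth factor gene Nrg3 scored 250 in WT -Leu and 63 in WT +Leu, also with the motif. An ORR1D2 peak nearest to Prr16 scored 218 with the motif, an ORR1D1-int peak in intron 2 of Bach2, a basic leucine zipper repressor gene, scored 197 without it, and an MTA_Mm-int peak in intron 2 of the methyl-CpG-binding gene Mbd5 scored 178 without it.

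The 31 LTR peaks that scored 100 or more lay at 30 loci, 22 of which had no peak in any other list. Of all intron and intergenic sites, 97.2% had none, but these are sites of every score. The share for sites outside LTRs that scored 100 or more is not given here, so the 22 have no like value beside them. Of the 31, 12 held TGATGCAA, another 5 held TGATGNAA, and 10 held none of the 5 motifs searched. Those with TGATGAAA (C6A) were nearest to 9130409I23Rik (RLTR19-int, score 274), Apcs (MLT1J1, 148), Nhlrc2 (MLT1I, 123) and Hs3st3b1 (MT2A, 121). Armc2 (MLT1L, 121) and Slc25a26 (MLTR14, 104) were among those with none. Those without TGATGCAA were looked at again for the 24 forms that differ from it by 1 base, a search added after their scores were seen. Of 19, 11 held such a form within 50 bp of the center and 8 did not. Such a form, or the motif itself, was in 32 of the 57 LTR peaks of WT -Leu that scored 60 or more (56.1%, 43.3 to 68.2) and in 46 of the 424 below (10.8%, 8.23 to 14.2), against 7.02% and 7.78% of the windows 1 kb away. In WT +Leu it was in 6 of 12 of those that scored 60 or more (50%, 25.4 to 74.6) and in 9.30% of the others, against 8.33% and 6.86% of the windows 1 kb away. In GCN2 KO +Leu it was in 0 of 5, too few to set beside WT, and in 8.58% of the others, against 6.72% of the windows around these. In GCN2 KO -Leu it was in 0 of 1 and in 8.98%, against 5.99%.

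Several repeat names held high-scoring peaks at more than 1 locus in WT -Leu. The RMER19 names (RMER19A, RMER19B, RMER19B2 and RMER19C), grouped after their scores were seen, had 25 peaks in WT -Leu, of which 10 scored 60 or more and 6 scored 100 or more. They had 14 peaks in WT +Leu and, in GCN2 KO, 11 with leucine and 7 without it, and none of these reached 60. Among all LTR peaks of these lists 2.71%, 1.83% and 0.595% did, and 11.9% did in WT -Leu, so the 0 counts are near the general shares. The 6 peaks past 100 were nearest to 4933417G07Rik, Sh2d4a, Zfp867 (score 145), Ppp1r21 (144), Syde1 (137) and Trim33 (133), and 1 of the 6, in Nbea, held TGATGCAA. This count cannot be set apart from the 36.7% of all LTR peaks past 100 in WT -Leu that held it. Of the 36 other RMER19B loci, 14 could be lined up with the window in Nbea. At its motif position 6 of these had a gap, and none of the others had TGATGCAA. LTR16A1 had 6 peaks, all of them in WT -Leu, and 2 scored past 100, at 117 near 9630028H03Rik and at 104 in intron 4 of Gdap1l1, both with the motif. Of all 1365 LTR peaks 481 were in WT -Leu, and 6.24% of these scored 100 or more. LTR16A1 was 1 of 242 names, and its counts were not tested. RMER15 had 6, 15, 6 and 1 peaks in the order of the lists. Its 2 highest, with scores of 302 near 9430083A17Rik and 164 in intron 5 of Alk, a receptor tyrosine kinase gene, held none of the 5 motifs, and the motif-bearing RMER15 peaks near Abi2 and Arhgap39 scored 48 and 23. The MLT1 names had 55 peaks in WT -Leu, 6 of them past 100, and 32, 24 and 12 peaks in WT +Leu and the GCN2 KO lists with and without leucine, none past 100. Both counts are near the general shares of peaks past 100 in these lists. ORR1E had motif-bearing peaks at 3 loci, in introns of Foxj3 (74 and 85 in both WT lists), Wtip (30 in WT +Leu) and Iqsec3 (23 in WT -Leu). MLT1C had them at 2, in intron 8 of the ATP receptor gene P2rx7 (83) and near Ube2ql1 (23), both in WT -Leu.

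Many MTC copies came within 1 base of the motif. TGATGCAG, which differs from it by A8G, lay anywhere in the window of 18 of the 45 MTC peaks (40%, 27.0 to 54.5), against 53 of all 1364 LTR peaks on assembled chromosomes (3.89%). When 43 other MTC loci were lined up with the window nearest to Ptn, 33 gave an alignment, and 13 of these had TGATGCAG at the position of the motif, 6 had a gap there and none had TGATGCAA. The 13 scored 17 to 54, with a median of 30, and came from all 4 lists. The window near Megf9 was not among the 33. It was the MTC locus with the highest score. Of the 93 bases around its motif, 40 (43.0%) were the same as those around the motif near Ptn. By the same count, motif-centered windows of different repeat names shared a median of 25.8% and at most 40.9%. Bases were compared position by position without gaps, so this count misses likeness beyond an inserted or lost base. In both printed MTC windows ctggaggcag stood shortly before the motif. Whether the motif near Megf9 lies at the matching position of its copy was not tested. The peak nearest to Ptn scored 27 in GCN2 KO -Leu, in intron 22 of Dgki, and was the only motif-bearing LTR peak of the GCN2 KO lists.

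RMER6A had 3 peaks in WT -Leu and 1 in GCN2 KO +Leu, which scored 28. The first lay at -8828 bp from Cebpd, the gene of C/EBP delta, itself a C/EBP factor of the kind that pairs with ATF4, and passed a score of 100. The second, nearest to Ccdc117, scored 97, and the last, in intron 2 of the myosin light chain gene Myl4, scored 48. The copies near Cebpd and Myl4 agreed at 82.2% of the bases lined up with the window of Myl4, but held the motif at different places. Where Myl4 had TGATGCAA, Cebpd had TGATTCAA (G5T) and Ccdc117 had TGATGTAA (C6T), and where Cebpd had TGATGCAA, Myl4 had TGATTCAA (G5T). TGATTCAA holds a match to TGANTCA, but not to the AP-1 site TGACTCA or TGAGTCA, and both windows were counted with TGANTCA. Each of the 3 windows therefore held TGATGNAA, at positions that line up for Myl4 and Ccdc117 and not for Cebpd. The GCN2 KO +Leu peak, nearest to Lrrc17, also held TGATGNAA, so all 4 RMER6A peaks did, and its window could not be lined up with those of Cebpd and Myl4.

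Few LTR peaks recurred between lists. Of the WT +Leu LTR peaks, 15 of 443 (3.39%, 2.06 to 5.51) had a WT -Leu peak whose center was 300 bp or less away, against 6.35% of all WT +Leu peaks, and 12 of the partners were LTR peaks themselves. Counted from WT -Leu, 13 of 481 (2.70%, 1.59 to 4.57) had a WT +Leu partner, against 4.85%. In GCN2 KO 6 of 273 +Leu peaks (2.20%, 1.01 to 4.71) had a -Leu partner, against 2.75%, and 5 of 168 -Leu peaks (2.98%, 1.28 to 6.78) had a +Leu partner, against 3.59%. In WT +Leu the share minus that of the other intron and intergenic peaks was -2.55 percentage points (Newcombe interval -4.10 to -0.314), and for the other 3 counts the interval of the difference included 0. Between the genotypes, 3 of the 443 WT +Leu LTR peaks had a GCN2 KO +Leu partner, against 1.92% of all WT +Leu peaks, and 1 had a GCN2 KO -Leu partner, against 1.57%. Of the 481 in WT -Leu, 2 had a GCN2 KO +Leu partner, against 1.73%, and 4 had a GCN2 KO -Leu partner, against 1.27%. Counted from GCN2 KO +Leu, 1 of 273 had a WT +Leu partner and 2 a WT -Leu partner, against 2.64% and 3.03% of all peaks. Of the 168 in GCN2 KO -Leu, 0 had a WT +Leu partner (up to 1.79%) and 5 had a WT -Leu partner, against 2.84% and 3.03%.

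Joined over all lists, the LTR peaks lay at 1343 sites, of which 1315 (97.9%) were in 1 list, 25 in 2 lists and 3 in 3 lists. No site was in all 4. Over all intron and intergenic sites the share in 1 list was close to this, at 97.2%, and 22 sites were in all 4. The site nearest to Itln1, the gene of an intestinal lectin, was an RMER21B element with scores of 17 and 105 in WT with and without leucine and 36 in GCN2 KO +Leu. An RMER17B site in an intron near Gm13251 scored 40 in WT -Leu and, in the knockout cells, 24 with leucine and 25 without it. The remaining one lay on an unplaced contig near Pisd-ps3, where only the WT +Leu peak, with a score of 30, was annotated to an LTR element (RMER10A). The peaks of WT -Leu (105) and GCN2 KO +Leu (35) were annotated to a simple repeat there.

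LTR peaks of both WT lists shared 12 sites, and the score was higher in WT -Leu at 9 of them and lower at 3. The ratio of the scores had a median of 4.05 and ran from 0.750 to 10.8, a description only, since the scores are not normalized between libraries. At 7 sites the score passed 100 in WT -Leu, where the WT +Leu scores of the same sites ran from 17 to 103. The MTEb-int site in intron 6 of Btbd9, for example, scored 31 with leucine and 139 without it. The sites near Guca2a, the gene of guanylin, in ORR1E (74 and 85) and near Mphosph8 in ORR1G (24 and 29) changed little. The site near Fntb (36 and 27) was lower without leucine, and those near Iqsec3 (24 and 23) and Mgat4a (21 and 19) were lower by little. Among LTR peaks the motif was more frequent at shared sites. Of the 17 WT +Leu LTR peaks at sites found in another list, 5 held the motif, against 2 of the 426 found in that list alone. In WT -Leu 7 of 17 did, against 18 of 464. The 5 loci of WT +Leu were among the 7 of WT -Leu, so these counts are not independent. The median score of shared against unshared LTR peaks was 85 against 30 in WT -Leu and 31 against 29 in WT +Leu. In GCN2 KO it was 25 against 30 with leucine and 36 against 30 without it. The motif counts, score ratios and median scores are not given here for shared sites outside LTRs. None of them is therefore shown to be particular to LTR peaks.

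**Figure D5:**
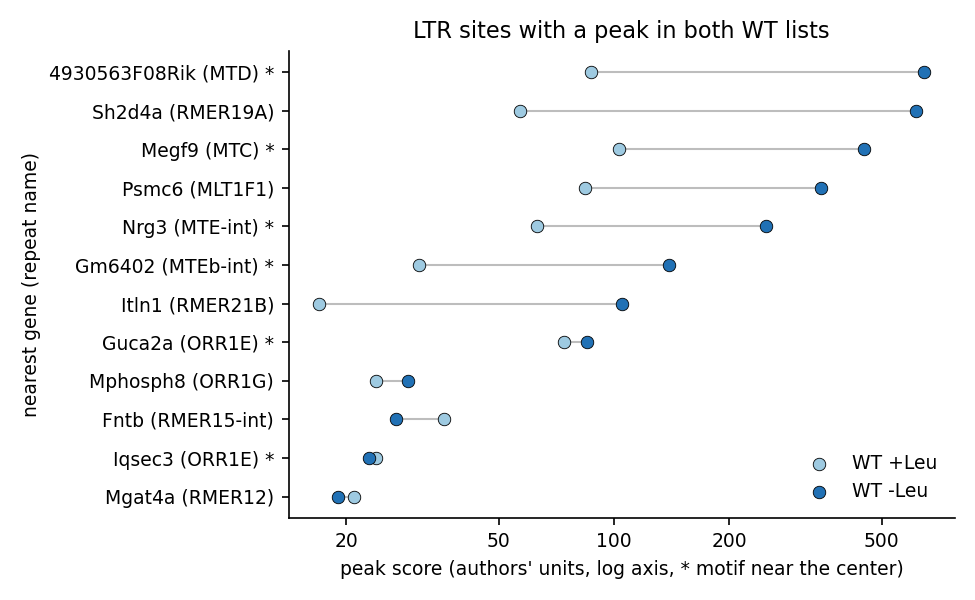
Scores in the authors' units (x axis, log scale) of the 12 LTR sites with an LTR peak in both WT lists, each named by its nearest gene and repeat (y axis), with light points for WT +Leu and dark points for WT -Leu. An asterisk marks sites with TGATGCAA, and the largest distance is that of Sh2d4a, from 57 to 615.

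Within 5 kb of a TSS lay 8.13%, 8.94%, 8.79% and 7.74% of the LTR peaks, against 13.1%, 13.6%, 12.5% and 11.8% of the other intron and intergenic peaks. The 112 genes with such an LTR peak included 4 with peaks in more than 1 list. Those near 4930563F08Rik and Psmc6 were at the same site, while those near Cd300lb and Scyl2 lay in different repeats and did not recur. The motif was in 2 of the 116 peaks, against 2.42% of all LTR peaks on assembled chromosomes. Both belonged to the MTD site near 4930563F08Rik. The strongest of the others were those near Psmc6 (347 in WT -Leu and 84 in WT +Leu) and Anks6 (310 in WT -Leu), followed in WT -Leu by RMER19B peaks at -4919 bp from Zfp867 and at -4433 bp from Syde1. An RMER6C peak at -4495 bp from the transcription factor gene Klf3 scored 68 in WT -Leu, and an MLT1L peak at 4451 bp from Dcst1 scored 64 in WT +Leu.

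The highest-scoring LTR peaks of the GCN2 KO lists scored below 100. In GCN2 KO +Leu an intergenic MYSERV6-int peak at -5522 bp from Nxpe5 scored 81, and the same site scored 32 in GCN2 KO -Leu. It was followed by an RLTR26_Mus peak nearest to Gm4719 and an RMER17A2 peak nearest to Gm14345, both with a score of 71. In GCN2 KO -Leu an MLT1K peak in intron 4 of Kazn, a gene of epithelial cell contacts, scored 76, and an MTD peak nearest to Thada scored 57. The Nxpe5, Gm4719, Gm14345 and Kazn windows held none of the 5 motifs.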

How the data were processed

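ATF4 ChIP-seq peaks of 4 libraries were analysed, 1 per condition. The authors aligned single 50 bp reads to mm10 with BWA 0.7.12, called peaks with MACS2 2.1.0 against input and annotated the summit with 150 bp to either side with HOMER 4.7 (versions from the submitters' processing notes). The treatment of reads that map to several repeat copies is not given in the sources used here. The deposited values used were the peak score, whose scale is not stated, the signed distance in bp to the TSS and, as deposited by the authors, GC content as a fraction, printed here as percent. Depth is unknown.

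Motifs were read from the GRCm38 reference, whose GC content equalled the listed value for every peak on assembled chromosomes. Partners had centers 300 bp or less apart, and sites were joined by single linkage. Shares have 95% Wilson intervals and differences within a list Newcombe intervals. A share of 0 allows 3 counts. Windows were lined up by local alignment with Biopython 1.88 (match 2, mismatch -2, gap opening -5, gap extension -2, minimum score 60), and words of 8 bases found in over 200 loci were ignored in the likeness check. The work was done in Python 3.11.15 with pysam 0.24.0, scipy 1.17.1, pandas 2.3.3, numpy 2.4.6 and matplotlib 3.10.9, and the partner and motif searches were tested on simulated data.

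Named peaks were those scoring at least 100, the 3 highest of each list, those recurring in 3 or more lists, the 8 highest-scoring sites of 2 lists, and motif-bearing peaks that scored at least 60 or recurred. Named repeats were the 10 with most peaks and those with motif-bearing peaks at 2 or more loci. Named genes were those nearest to these peaks, or with an LTR peak within 5 kb that scored at least 60 or recurred. The members and lists were chosen with earlier results of these data known, and the likeness check, the lining up, the forms with 1 base changed, the grouped repeat names and the repeat-name details of further peaks were chosen after values were seen.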

Additional observations from a re-analysis of the deposited data

Results flagged for a closer look

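The number of LTR peaks without leucine was above that with leucine in WT and below it in GCN2 KO. The ratio of LTR peaks without to with leucine was 1.086 (0.954 to 1.24) in WT and 0.6154 (0.508 to 0.746) in GCN2 KO. The other intron and intergenic peaks had the same directions, with ratios of 1.31 and 0.758, so the direction was shared with peaks outside LTRs. The difference was not tested, since each condition had 1 library. The interval of the WT ratio included 1 over all listed peaks and excluded it (1.08 to 1.54) for peaks with a score of at least 30. At that score WT had 218 LTR peaks with leucine and 281 without it. The other intron and intergenic peaks numbered 1919 and 2927, a larger relative rise than that of the LTR peaks.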

How the results depend on the processing

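Of 62 alternative values for 20 results, 47 stayed within their counting interval, 15 moved beyond it and 0 reversed, and the cause of these moves was not tested except where the alternative's own construction sets it. With peaks of a score of at least 30, the ratio of LTR peaks in WT was 1.289 (1.08 to 1.54, an interval that excludes 1 where that over all peaks includes it), the LTR share in GCN2 KO +Leu was 10.46% and the share with TGATGCAA in GCN2 KO -Leu was 0%. With all listed peaks as the denominator, the LTR share was by construction lower, at 9.134%, 7.546%, 7.656% and 6.287% in the order of the lists. With a threshold of 60, the share of high-scoring LTR peaks was 2.709% in WT +Leu, 11.85% in WT -Leu and 1.832% in GCN2 KO +Leu. Among the 2672 strongest peaks of WT -Leu, 15.62% of LTR peaks scored at least 100 and 10.42% held TGATGCAA. In WT -Leu the motif share was 7.692% within 150 bp and 8.524% with TGATGNAA, which gave 3.571% in GCN2 KO -Leu. Joining rules for recurrence, contigs and the uncertain class moved no value beyond its interval. No paired analysis was possible because each condition had 1 library. Unknown depth limits every comparison between lists, and counts of 0 in GCN2 KO allow shares of 1.10 to 1.79%.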
